A study of Mus musculus with 6 samples.

Results

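The 9 genes described here, Baz1a, Baz1b, Baz2a, Baz2b, Brd2, Brd3, Brd7, Brd8 and Brd9, encode bromodomain proteins of the BAZ and BRD families. They were taken from the 27179 genes of the table by their symbols, and all 9 were found. The set was chosen by the study's own comparison, in which Baz2b had a small p-value, and that comparison is not used here. Brd1 and Brdt, for example, are not members, so the set is not the whole of the BRD family.

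RNA was sequenced from B16F10 cells, an established mouse melanoma line labelled wild type, after 6 h with 0.01% ozonated olive oil (OZO, 3 samples) or 0.01% olive oil (OLO, 3 samples). The labels do not say whether the samples of a group came from separate cultures, whereas the study describes the experiments behind its expression plot as independent. The measurement used is the authors' average level of each gene in log2 CPM, counts scaled to a common library size, as a single value over both groups. It carries no standard deviation and does not separate OZO from OLO, so no difference between the treatments and no spread between samples is given for any gene below.

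A bromodomain is a protein fold that binds acetylated lysine, most often on histone tails. BAZ proteins are the large partners of ISWI chromatin remodellers, which slide nucleosomes. BRD2, BRD3 and BRDT are among the proteins of the BET family, whose paired bromodomains bring transcription machinery to acetylated chromatin. BRD7 and BRD9 are subunits of separate forms of the SWI/SNF (BAF) remodeller, and BRD8 belongs to the TIP60 acetyltransferase complex. BET proteins are studied in melanoma as targets of small-molecule bromodomain inhibitors.

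Library totals are known only as an average. Genes without reads share the lowest level, which gives a geometric mean library size of 19641946 reads, so 1 CPM stood for 19.6 reads. No read was counted for 6025 genes, and 21154 had at least 1 read in some sample. All 7 markers of melanocytic cells examined were expressed, from 108.5 CPM for Sox10 to 7052 CPM for Dct. None of the 13 markers of keratinocytes, fibroblasts, endothelium and leukocytes exceeded 3.28 CPM, the level of Pdgfra, and Krt5 had no reads. All 3 fibroblast markers, 1 of 2 endothelial markers and 1 of 4 leukocyte markers reached 1 CPM. None of the 4 keratinocyte markers did.

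All 9 genes were well expressed. Their levels ran from 56.1 CPM for Brd9 to 452 CPM for Baz1b, with a median of 120.0 CPM, whereas the median over all genes with reads was 2.73 CPM. Each of the 9 thus lay between the 80.2 and the 98.7 percentile of genes with reads, without correction for gene length. Per kilobase of the longest transcript the range was from the 70.8 to the 97.1 percentile. Of all 27179 genes, 43.7% reached 1 CPM, and 32.3% reached 10 CPM, as all 9 members did.

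**Figure D1:**
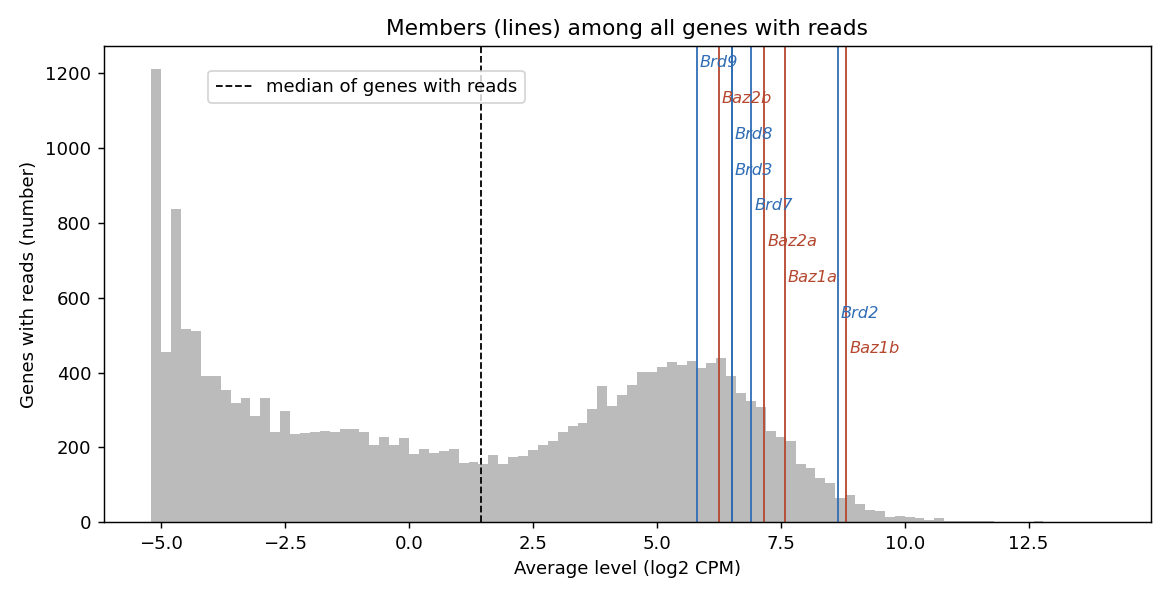
Histogram of the average level (x axis, log2 CPM over the 6 samples) of the 21154 genes with reads (y axis, number of genes in bins 0.2 wide), with a line for each of the 9 genes (red BAZ, blue BRD). All 9 lines lie to the right of the median of genes with reads, from 5.81 for Brd9 to 8.82 for Baz1b.

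CPM values are not corrected for gene length and show how many reads stood behind each gene. Baz1b averaged 452 CPM and Brd2 403 CPM, and the next gene, Baz1a, had 191 CPM. Below them followed Baz2a with 144 CPM, Brd7 with 120.0 CPM and Brd3 with 91.3 CPM. Brd8 at 91.1 CPM could not be placed apart from Brd3, since the gap of 0.29% is less than the counting error of 2.36% for either gene in a library of average size. Baz2b with 76.2 CPM and Brd9 with 56.1 CPM closed the order. Counting error alone was from 1.06% for Baz1b to 3.01% for Brd9 in a library of average size, corresponding to 8872 and 1102 reads. Spread between samples adds to it and is not known from an average, so for neighbours in this order a difference was not tested.

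Reads accumulate with transcript length, so the order above is one of reads, and levels of genes are set against each other per kilobase (kb) from here on. Each CPM value was divided by the length of the longest annotated transcript, from 3625 bases for Brd7 to 8443 bases for Baz2a. On this scale Brd2 led with 86.6 CPM per kb and Baz2b was lowest with 9.65 CPM per kb, 8.98 times apart. Brd2 remained the highest of the 9 with each of 4 choices of length. Baz2b was the lowest with 3 of them, and the exception was the median transcript length, with which Baz2a was lowest.

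**Figure D2:**
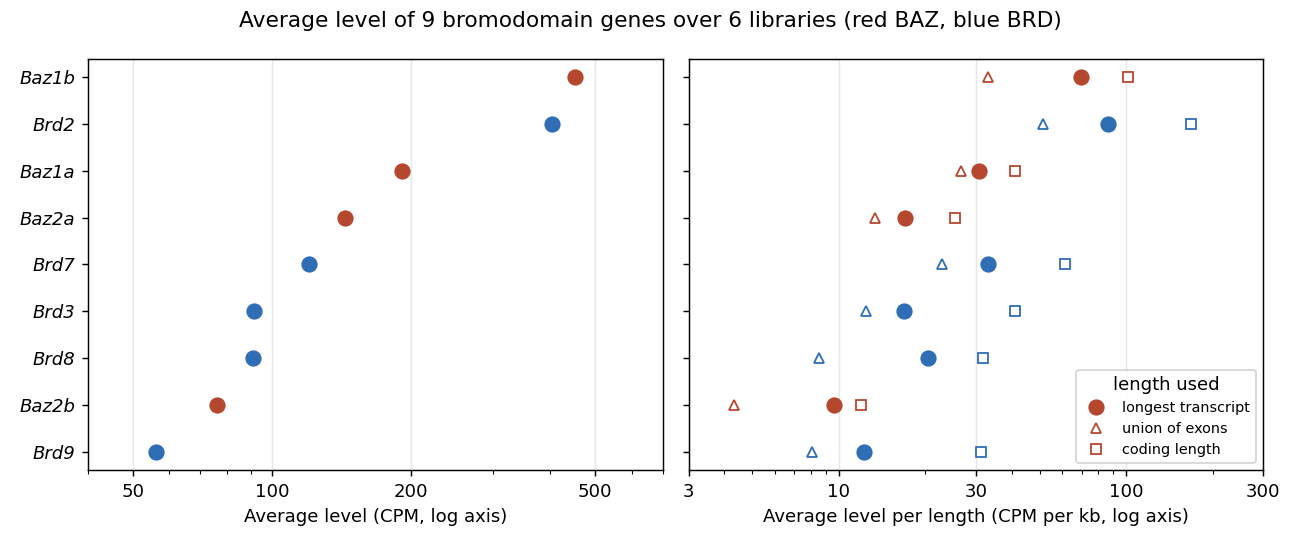
Average level of each of the 9 genes over the 6 samples, as CPM (left, log axis) and as CPM per kb (right, log axis) with the longest transcript (filled circles), the union of all exons (triangles) or the coding length (squares) as the length. Brd2 leads the right panel with all 3 lengths and Baz2b is lowest with all 3, while single averages have no error bars.

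BAZ1A and BAZ1B are related BAZ proteins, and both join the ISWI motor SMARCA5. BAZ1A (ACF1) forms the ACF and CHRAC remodellers, and BAZ1B (the Williams syndrome transcription factor) forms the WICH complex found at replicating chromatin. In GRCm38, the assembly also known as mm10, Baz1b spans 135187264 to 135246129 of chromosome 5 (plus strand), its longest transcript has 19 exons, and the miRNA gene Gm25315 overlaps it on the same strand. Its level was 69.6 CPM per kb. Baz1a, on chromosome 12 from 54892989 to 55014348 on the minus strand with 27 exons, had 30.8 CPM per kb. Of the 3 annotated genes that overlap Baz1a, Gm20403 is protein-coding and on the same strand. The symbol Gm20403 was not matched in the table, and how reads of the shared stretch were counted is not known. Baz1b was therefore 2.26 times as high as Baz1a with the longest transcript as the length, 1.24 times with the union of exons and 2.49 times with the coding length. With the median transcript length the order turned, to 0.45 times. The 8 annotated Baz1a transcripts have a median length of 573 bases, which is 3018 bases for the 5 of Baz1b.

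Smarca5, the ISWI motor itself, had 432 CPM. Its level per kb was 1.01 times that of Baz1b with the longest transcript, and from 1.34 to 4.05 times with the other lengths. Smarca1, the other ISWI motor, had only 0.188 CPM, at the 30.5 percentile of genes with reads and 3.69 reads in a library of average size. The small histone-fold subunits of CHRAC, which join BAZ1A and SMARCA5, had 19.9 CPM per kb (Pole3) and 9.29 CPM per kb (Chrac1), beside 30.8 CPM per kb for Baz1a. Of the 7 genes listed as ISWI subunits, 5 reached 1 CPM, and the exceptions were Smarca1 and Cecr2 (0.303 CPM). Among these 7, Smarca5 was the highest per kb of the longest transcript.

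BAZ2A (TIP5) is the large subunit of NoRC, which silences copies of the ribosomal RNA genes, and BAZ2B is its paralog. Baz2a lies on chromosome 10 from 128091577 to 128129303 on the plus strand. It overlaps no other annotated gene, and its level was 17.0 CPM per kb. Baz2b, the gene through which the set was chosen, lies on chromosome 2 from 59899363 to 60209839 on the minus strand. Its span of 310477 bases is the longest of the 9, its longest transcript has 35 exons, and 14 transcripts are annotated. Its level was 9.65 CPM per kb, at the 70.8 percentile of genes with reads on that scale. The percentile of Baz2b was 63.1 with the union of exons and 58.1 with the coding length. With the median transcript length it ranked 5 of the 9. In a library of average size 1497 reads stood behind it. Baz2a was 1.76 times as high as Baz2b with the longest transcript, 3.10 times with the union of exons and 2.12 times with the coding length, but 0.257 times with the median transcript length. The union of annotated exons of Baz2b, 17604 bases, is 9709 bases longer than its longest transcript, the widest such gap of the 9 genes. Of the 5 annotated genes that overlap Baz2b, Gm13570 was matched in the table by symbol, and it had no reads.

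Among the BET genes described here, Brd2 had the highest level. It lies on chromosome 17 from 34112023 to 34122634 on the minus strand, within the major histocompatibility region, and at 10612 bases it is the most compact of the 9 genes, with 19 annotated transcripts. H2-DMa overlaps it on the opposite strand and averaged 0.373 CPM, 0.0924% of the Brd2 level. The antisense gene CR974462.3 also overlaps Brd2, and its symbol was not matched in the table. Brd3, on chromosome 2 from 27445579 to 27507662 on the minus strand, had 16.9 CPM per kb against 86.6 CPM per kb for Brd2. The miRNA gene Mir7578 overlaps Brd3 on the same strand. Brd2 was 5.14 times as high as Brd3 with the longest transcript, and from 4.11 to 15.1 times with the other lengths. Brdt, known as the testis member of the family, averaged 6.31 CPM, or 1.33 CPM per kb. It was below all 9 members per kb of the longest transcript.

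BET proteins are known to work with P-TEFb, the kinase that releases paused RNA polymerase II. Per kb of the longest transcript its subunits had 17.2 CPM (Cdk9), 8.83 CPM (Ccnt1) and 13.6 CPM (Ccnt2), near or below Brd3 with 16.9 CPM. All 10 genes listed as P-TEFb components or BET partners reached 10 CPM, and their median per kb was 19.5 CPM per kb against 20.4 CPM per kb for the 9 members. Chd4, a remodeller of the NuRD complex that has been found with BET proteins, was the highest of them with 108.0 CPM per kb of the longest transcript, above every member, and Ccnt1 was the lowest. By reads alone, Cdk9 was the last of the 10 with 61.5 CPM.

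BRD7 is a subunit of PBAF and BRD9 of the noncanonical ncBAF complex, so the pair marks separate forms of the SWI/SNF remodeller. Brd7 lies on chromosome 8 from 88331039 to 88362194 on the minus strand and overlaps no other annotated gene. Brd9 lies on chromosome 13 from 73937811 to 73960895 on the plus strand and is overlapped by the antisense gene Gm41002. Their levels were 33.1 CPM per kb for Brd7 and 12.3 CPM per kb for Brd9, a ratio of 2.69 with the longest transcript and from 1.96 to 5.80 with the other lengths. The order of Brd7 among other PBAF subunits depended on the length. Brd7 was 1.01 times Pbrm1 and 1.37 times Phf10 with the longest transcript, but 0.782 times Pbrm1 with the union of exons, 3.53 times Pbrm1 with the median transcript length and 0.970 times Phf10 with the coding length. Brd7 was above Arid2 with each length, from 1.25 to 2.08 times.

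The partners of BRD9 in ncBAF were unequal. Bicral (GLTSCR1L) was 6.27 times as high as its paralog Bicra (GLTSCR1) per kb of the longest transcript, and from 7.21 to 16.6 times with the other lengths. Brd9 was 1.96 times Bicral with that length and from 1.34 to 2.45 times with the others. It was 12.3 times Bicra with the longest transcript and from 9.67 to 27.8 times with the others. Among the 26 genes listed as subunits of BAF, PBAF and ncBAF, 25 reached 1 CPM and 21 reached 10 CPM. Actl6a was the highest per kb of the longest transcript, with 59.3 CPM per kb, while Pbrm1 had the most reads, 259 CPM. Actl6b, the neuronal paralog of Actl6a, was the lowest with 0.0723 CPM. That is 1.42 reads in a library of average size, including the 0.5 reads that the authors' method adds.

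BRD8 is a bromodomain subunit of the TIP60 complex, which acetylates histones and exchanges the histone variant H2A.Z. Brd8 lies on chromosome 18 from 34598615 to 34624601 on the minus strand, has 8 annotated transcripts and overlaps no other annotated gene. Its level was 20.4 CPM per kb of the longest transcript, at rank 5 of the 9, and its rank was 6, 7 or 8 with the other lengths. It was 2.21 times as high per kb as Kat5, the catalytic subunit, with the longest transcript, and from 1.36 to 2.37 times with the other lengths. All 17 genes listed for the TIP60 complex reached 10 CPM. Their median was 19.7 CPM per kb, beside the 20.4 CPM per kb of Brd8. Morf4l2 was the highest of them with 101 CPM per kb and Meaf6 the lowest with 3.78 CPM per kb, both with the longest transcript. By reads alone, Morf4l1 came first with 348 CPM and Dmap1 last with 10.6 CPM.

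Most other bromodomain genes were also expressed in these cells. Of 27 such genes listed, which include Brd1 and not Brdt, 24 reached 10 CPM. Their median was 22.4 CPM per kb, beside 20.4 CPM per kb for the 9 members and 1.54 CPM per kb over genes with reads. Atad2, an ATPase with a bromodomain linked to growth and replication, was the only one of the 27 above all 9 members per kb of the longest transcript, with 105 CPM per kb. Brd1, a scaffold of histone acetyltransferase complexes that shares its name with the set, had 26.7 CPM per kb. The 3 genes under 1 CPM were Trim66 (0.612 CPM), Cecr2 (0.303 CPM) and Sp140 (0.0423 CPM), and Sp140 is known as a gene of immune cells. With Smarca2, a motor of the BAF complex at 9.12 CPM per kb, and Crebbp, the acetyltransferase CBP at 6.64 CPM per kb, they were the 5 genes below every member per kb of the longest transcript. Whether the 9 members differ from these 27 genes was not tested, since each gene has 1 average value.

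**Figure D3:**
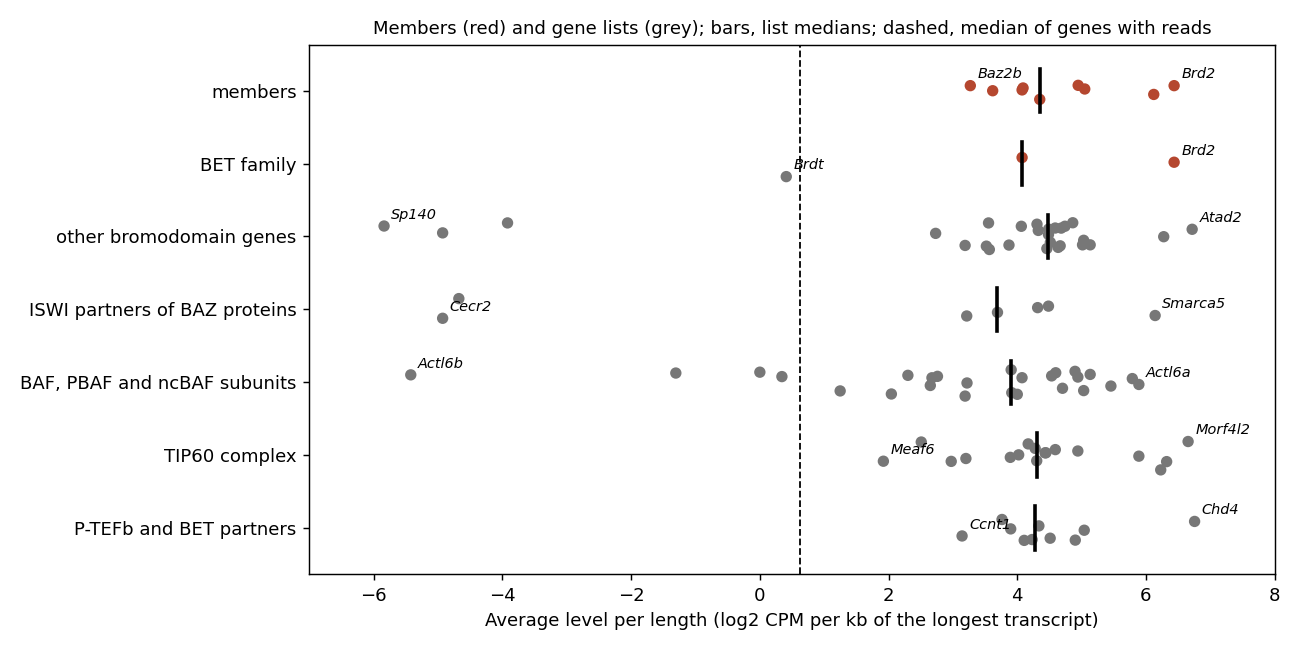
Average level per kb of the longest transcript (x axis, log2 CPM per kb) of the 9 members (red) and of the genes of 6 lists (grey, members in red), with a bar at each list's median and a dashed line at the median of genes with reads, 0.62. The 9 members lie between 3.27 and 6.44, within the range of the listed partners, and Brdt, Sp140 and Actl6b mark the low ends of their lists.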

How the data were processed

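RNA-seq libraries (NEBNext Ultra II Directional kit, paired reads on an Illumina NovaSeq) were made from B16F10 cells of 3 OLO and 3 OZO samples. According to the study's methods and processing notes, reads were aligned to mm10 with HISAT2 (2.1.0), counted with featureCounts (2.1.1) and compared with limma-voom (limma 3.58.1). Strand use in counting, filters and the scaling of library sizes are not given in the sources used here. The deposited table holds, for 27179 genes, 1 average log2 expression value over all samples by the authors, and the columns of their own comparison of OZO with OLO (log2 fold change, moderated statistic, p-value, adjusted p-value and log odds). Those columns hold the study's findings and were not used. Values of single samples were not analysed here, so the planned tests of OZO against OLO were not run, and no SD over the 6 averaged samples can be given. The number of unused per-sample columns was 0.

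The average was read as log2 CPM with 0.5 reads added per count. Genes within 1e-09 of the lowest value were taken as without reads. The next value lay 0.264 higher, which is the step that 1 read in 1 of 6 samples gives, so all 6 samples entered the average equally. Reads behind a gene are its CPM times 19.6, the reads that 1 CPM stood for. Counting error is 100% over the square root of these reads and covers counting only. A percentile is the share of genes with a lower level. Lengths and positions come from GENCODE release M21 (GRCm38), matched by Ensembl identifier and otherwise by symbol for 25296 genes (93.1%). The study's methods do not name the gene annotation used with featureCounts, so these lengths may differ from those of the exons counted. CPM values are geometric means over samples. The 9 members, and the lists of complexes, other bromodomain genes and cell type markers, were chosen with earlier results of these data known. Named genes were the members, Brdt, direct partners, and the highest and lowest gene of each list by average level (per kb also, added later). Genes below 1 CPM, Crebbp, Smarca2 and those overlapping a member were named after their values were seen. A further gene that the rule named, apart from those given here, is not reported here. Other choices of length, of genes behind the percentiles and of the level counted as expressed were tried. The calculation was tested on simulated counts of 27179 genes and recovered the library size to 100%. The simulated levels were made with the same formula, so the form of the authors' average was not tested. Python 3.11.15, numpy 2.4.6, pandas 2.3.3 and matplotlib 3.10.9 were used.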

Additional observations from a re-analysis of the deposited data

How the results depend on the processing

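No paired analysis was possible because each gene has 1 average over both groups. For the same reason limma-voom, DESeq2, the replicate block and leaving out each replicate were not run. The ratio of the highest to the lowest member per kb, 8.98 with the longest transcript, was 22.7 with the median transcript length, and with lengths chosen after seeing the data 11.9 (union of exons) and 14.1 (coding length). Which transcripts the cells use was not tested. Among all genes the members lay from the 84.6 to the 99.0 percentile, in place of 80.2 to 98.7 among genes with reads. Among genes at 1 CPM or more they lay from the 64.8 to the 97.7 percentile. Those percentiles are not corrected for length. Per kb, among genes with reads and a known length, the range was 70.8 to 97.1 with the longest transcript. It was 72.1 to 98.9 with the median transcript length. With the union of exons it was 63.1 to 96.0, and with the coding length 58.1 to 94.4. All 9 members, and 24 of 27 other bromodomain genes, reached both 1 and 10 CPM. For the members and the 6 lists of complexes and bromodomain genes, the counts stayed within 1.5 times under both alternative levels, which were not tried on the cell type markers. At least 1102 reads in a library of average size stood behind each member, and the spread between samples is not known.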

Other observations

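The windows before the RefSeq starts of the members were mostly rich in CpG dinucleotides. Of the 9 genes, 7 had entries in the RefSeq promoter table (GRCm38.p6), with 10 start sites. Of the 10 windows, 5 lie wholly inside the gene as GENCODE draws it and not at its 5′ end. Their starts are 84.1 kb inside Baz2b, 32.3 kb inside Brd3, 1206 bases inside Baz2a, and 887 and 2734 bases inside Brd2. The other 5 starts lie within 59 bases of the 5′ end. In the 250 bases before the 10 starts, internal ones included, the median number of CpG was 21, against 6 over all 32851 promoters of the table. The internal window of Baz2b had 4 CpG and 41.2% G and C, at the 37.8 percentile of CpG number. The other starts had from 12 CpG, at one of the 3 starts of Brd2, to 37 CpG at Brd3. The GC box GGGCGG, on either strand, occurred before 7 of the 10 starts, or 6 of 9 with the 2 starts of Brd9, which lie 17 bases apart, counted once, and in 32.7% of all promoters. The TATA motif TATAAA, on either strand, occurred in the internal window of Baz2b and in none of the other 9, compared with 12.4% of all promoters. CCAAT, on either strand, occurred in 2 of the 10, those of Baz1b and Baz2b, compared with 33.8%, and CACGTG, the E-box bound by MITF and MYC proteins, before none, compared with 6.02%. These matches describe the letters of the windows. Baz1a and Brd8 had no entry.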
